A study of Drosophila melanogaster with 2 samples.

Results

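The genes described here encode the translation initiation factors (eIF) and elongation factors (eEF) of Drosophila melanogaster. They were chosen by symbol as the protein-coding genes of the Ensembl annotation whose names begin with eIF or eEF, which gave 52 of the 13968 protein-coding genes on the chromosome arms. The question was at which of them the tagged CG8765 protein had a peak in chromatin immunoprecipitation followed by sequencing (ChIP-seq). The series holds 1 group, whole embryos aged 0 to 8 hours from the strain CG8765-GFP. These transgenic flies make CG8765 fused to enhanced GFP (CG8765-eGFP), and an antibody against GFP was used. The group has 2 biological replicates, and a control experiment that the labels name is not used here. Whole embryos mix many cell types, so a peak cannot be assigned to any of them. No source used here gives the promoter that drives the fusion. The authors' lists hold 2167 peaks (conservative) and 2877 (less strict) for both replicates together, and 1919 and 1693 for replicates 1 and 2 alone. Each replicate also has a ranked list without threshold, of 108098 peaks in replicate 1 and 127098 in replicate 2. Without a second condition, every value below describes where peaks lay, and no comparison between conditions was possible.

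Initiation factors bring the small ribosomal subunit, the initiator tRNA and the capped end of an mRNA together, and elongation factors carry the ribosome along the coding sequence. In the usual order of events, eIF4F binds the cap, eIF2 brings the initiator tRNA, eIF3 with eIF1 and eIF1A holds the scanning complex, and eIF5 and eIF5B license joining of the large subunit. During elongation eEF1 delivers charged tRNAs and eEF2 moves the ribosome forward. Fly embryos start life on maternal mRNAs, so translation is a main point of gene control at the very start of development. The embryos used here were aged 0 to 8 hours and are not limited to that start.

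A gene was called bound when the summit of a listed peak, its highest point, lay within 500 bp of an annotated transcription start site (TSS) of the gene. In the conservative thresholded list of the series, 11 of the 52 translation factor genes were bound (21.2%), against 10.5% of all protein-coding genes. These were eEF1alpha1, eEF1gamma, eEF5, eIF1, eIF2A, eIF3c, eIF3d1, eIF3h, eIF4EHP, eIF5B and eIF6. The less strict list of the series also held 11 members (21.2%, all protein-coding genes 12.3%), with eIF2gamma in place of eIF2A. Replicate 1's own thresholded list held 8 members (15.4%, all protein-coding genes 8.35%), and replicate 2's own held 7 (13.5%, all protein-coding genes 8.78%). There were 6 members in the conservative list and in both replicates' lists, namely eEF1alpha1, eEF1gamma, eIF1, eIF3c, eIF3h and eIF6 (11.5%, all protein-coding genes 5.64%). The members' share stood above that of all protein-coding genes in each of these lists, and each count rests on few genes.

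**Figure D1:**
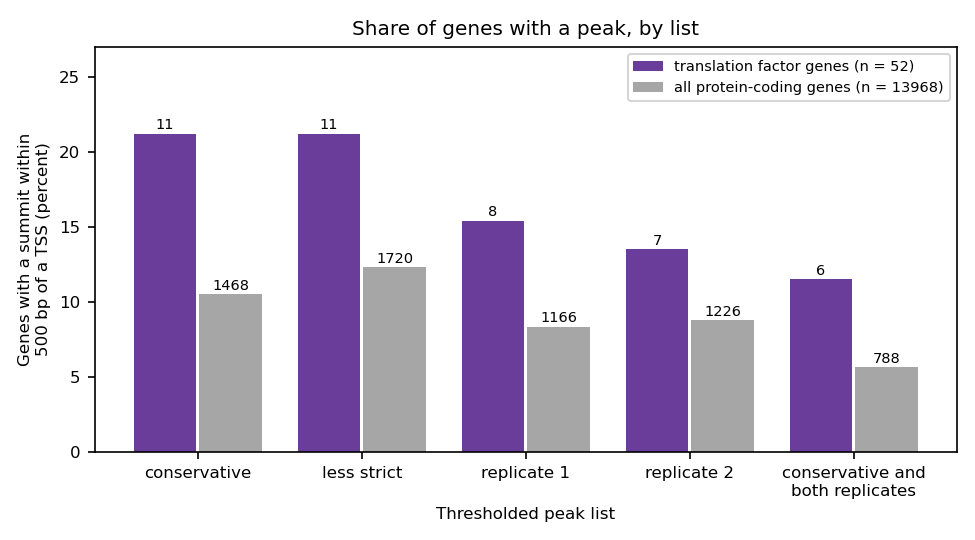
Percent of genes with a summit within 500 bp of a TSS (vertical axis) in each thresholded list, for the 52 translation factor genes (purple) and all 13968 protein-coding genes (grey), with the number of genes above each bar. The purple bar is the taller of the pair in every list, at 21.2% against 10.5% in the conservative list and 11.5% against 5.64% where both replicates' own lists were also required.

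The sequences at the summits of several bound members are given below. Each stretch below reaches up to 60 bp to either side of a summit, was cut where an annotated untranslated region begins, and is written 5′ to 3′ on the strand of the gene. Capitals mark any of the 7 motifs searched. The stretch at eEF1gamma (chr3R:29220073-29220171 of dm6, plus strand) and that at eIF1 (chr3L:3222961-3223053, plus strand) each hold TATCGATA, the DNA replication-related element, and the first also holds CAGCNCT. The stretch at eIF3d1 (chr3R:23679948-23680038, plus strand) holds none of the motifs. That at eIF4EHP (chr3R:24109146-24109266, minus strand) is rich in A and T and holds TATAAA, the TATA box string, on both strands. The stretch at eIF3h (chr2L:5052406-5052526, minus strand) lies in an intron of the gene and holds CTTTTC on the opposite strand.
eEF1gamma: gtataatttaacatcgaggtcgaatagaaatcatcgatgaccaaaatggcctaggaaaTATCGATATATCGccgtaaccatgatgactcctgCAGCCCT
eIF1: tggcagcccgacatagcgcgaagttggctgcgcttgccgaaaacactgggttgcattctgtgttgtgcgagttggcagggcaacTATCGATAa
eIF3d1: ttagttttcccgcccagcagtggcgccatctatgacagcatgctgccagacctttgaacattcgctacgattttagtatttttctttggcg
eIF4EHP: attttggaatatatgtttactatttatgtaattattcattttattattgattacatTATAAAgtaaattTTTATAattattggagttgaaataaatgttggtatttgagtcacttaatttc
eIF3h: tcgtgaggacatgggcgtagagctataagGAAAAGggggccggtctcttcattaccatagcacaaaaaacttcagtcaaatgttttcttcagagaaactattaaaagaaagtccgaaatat

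G and C made up 41.4% of the printed stretch at eEF1gamma, 54.8% at eIF1, 47.3% at eIF3d1, 17.4% at eIF4EHP and 39.7% at eIF3h. Over the 201 bp centred on each summit, the 11 member summits had a median of 42.8% G and C (quartiles 40.5 and 45.3%, range 24.9 to 49.3%). At the 1084 conservative summits near any protein-coding TSS the median was 36.8% (quartiles 31.8 and 42.3%, range 19.4 to 70.6%). The motif TATCGATA, searched on both strands, lay within 100 bp of 4 of the 11 member summits, those of eEF1gamma, eIF1, eIF2A and eIF6, against 7.93% of the 1084 summits. Its shorter core CGATA, which every TATCGATA contains, lay within 100 bp of 8 of 11, against 38.6%. TATAAA lay there at 2 of 11, eIF4EHP and eIF6, against 34.2%. GGTCACAC, core promoter motif 1, was found at 2 of 11 against 3.41%, CAGCNCT at 2 of 11 against 15.6%, CTTTTC at 2 of 11 against 15.8% and CAGCTG at 0 of 11 against 11.8%. Over promoters rather than summits, from 250 bp upstream of the outermost TSS of a gene to 50 bp downstream, TATCGATA occurred at 14 of 52 members, of which 3 were bound, and at 9.36% of all protein-coding promoters. Of all 52 members 11 were bound (21.2%), and of all protein-coding genes 10.5%, so the 3 of 14 is no result about the motif. CGATA occurred at 33 of 52 member promoters (all 47.3%), TATAAA at 23 (45.8%) and CTTTTC at 15 (26.1%). CAGCNCT occurred at 12 (16.1%), GGTCACAC at 6 (7.69%) and CAGCTG at 4 (17.6%). Of these, 6, 6, 2, 5, 0 and 1 were at bound members, in the same order. The bound share of all protein-coding genes with each motif is not given here, so these counts are not read as results about a motif. A match says only that these letters are present.

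The strongest peaks at translation factor genes were at eIF6 and eIF4EHP. The protein eIF6 keeps the large ribosomal subunit from joining the small one too early and takes part in maturation of the large subunit. Its peak (2R 23850292 to 23850509, minus-strand gene) ranked at place 24 of the 2167 peaks of the conservative list, with a signal of 698 in the authors' units. In the replicates' own lists the same site had a signal of 213 in replicate 1 and 499 in replicate 2. The signal scale differs between lists, so ranks were used to set the replicates side by side, written as the percent of the list's peaks that were ranked as high or higher. The eIF6 peak stood at 0.0759% of the ranked list of replicate 1 and at 0.0126% of that of replicate 2, the highest place of any member in both. Its summit lay 97 bp upstream of the single eIF6 TSS, in an exon of the antisense RNA gene asRNA:CR45928, whose own TSS was 68 bp away.

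The cap-binding family has 7 members here, of which 1 was bound, eIF4EHP (all protein-coding genes 10.5%). The protein binds the mRNA cap without recruiting eIF4G and represses translation of maternal messages such as caudal in the embryo. Its peak (3R 24109128 to 24109347) had a signal of 499 and ranked at place 61 of the conservative list. Its summit was 246 bp upstream of eIF4EHP and 130 bp upstream of CG18428, the gene on the other strand. In the ranked lists the site had a signal of 135 in replicate 1 and 356 in replicate 2, at 0.216% and 0.0299% of these lists. Yet it was absent from both replicates' own thresholded lists, although its score was 1000 in both ranked lists and the lowest score kept in a thresholded list was 830. The other members of the family stood far lower. The main cap-binding gene eIF4E1 had a ranked peak in replicate 1 at 8.36% and none in replicate 2. For eIF4E3, a gene used in spermatogenesis, the ranks were 66.5% and 63.9%. eIF4E5 was listed in replicate 1 at 68.1%, and eIF4E4, eIF4E6 and eIF4E7 had no ranked peak in either replicate.

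The helicase eIF4A, which unwinds mRNA leaders as part of eIF4F, was in none of the thresholded lists although its peak was strong. The peak (2L 5982379 to 5982702) had a signal of 116 and a score of 1000 in both ranked lists of the series, with the summit 53 bp upstream of a TSS. In the ranked lists of the replicates it had a signal of 43.7 and a score of 974 in replicate 1 and a signal of 71.7 and a score of 1000 in replicate 2. These places correspond to 1.51% and 0.618% of the lists, close to those of eEF1alpha1 and eIF5B in replicate 2. The thresholded lists left out 4.61% of the ranked peaks on the arms whose score reached the lowest score kept in the conservative list (103 of 2235), 4.04% in the less strict list, 4.39% in replicate 1 and 4.08% in replicate 2. At translation factor genes these left-out peaks were those of eIF4A in all 4 lists and of eIF4EHP in both replicates. Per the text deposited with the samples, every thresholded list derives from the alignments and 1 further file that the ranked lists do not use, and the kind of that file is not stated. Absence of eIF4A and eIF4EHP from a thresholded list therefore cannot be read as absence of a peak, and why they were left out was not tested. The other members of the helicase group were not bound. eIF4H1 stood at 10.5% in replicate 1 and 14.0% in replicate 2, eIF4H2 at 58.2% in replicate 1 alone, and eIF4B had no ranked peak. The nearest conservative summit to eIF4B (3L 27842669 to 27858271) was 4979381 bp away.

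Among elongation factors, eEF1alpha1, eEF1gamma and eEF5 were bound. eEF1alpha1 encodes the GTPase that delivers aminoacyl-tRNA to the ribosome. Its peak (2R 11891947 to 11892270) had a signal of 144 in the conservative list, 66.8 in replicate 1 and 71.7 in replicate 2. The summit lay in an intron, 13 bp upstream of the third of 4 annotated TSSs and 974 bp downstream of the outermost one. eEF1gamma encodes a subunit of the exchange complex that reloads eEF1alpha with GTP. Its signal was 185 in the conservative list (3R 29219971 to 29220294), 111 in replicate 1 and 79.9 in replicate 2, and its summit fell 39 bp before the nearest of its 2 TSSs. Both genes were in all 4 thresholded lists, at 0.617 to 0.756% of the replicates' ranked lists for eEF1alpha1 and 0.315 to 0.493% for eEF1gamma. eEF5 encodes the hypusine-bearing factor formerly called eIF5A. Its peak (2R 24057613 to 24057936) had a signal of 77.4 and its summit 23 bp before the start of the gene. It was in the thresholded list of replicate 1 with a score of 836 and not in that of replicate 2, where its ranked peak had a score of 511. The other subunits of the exchange complex stood lower, eEF1beta at 10.2% and 28.6% in replicates 1 and 2, and eEF1delta with no ranked peak in either. eEF2, the translocation factor, had a ranked peak 3 bp downstream of a TSS in replicate 2 (signal 43.6, 1.52% of the list, score 442) and none in replicate 1. eEFSec, the elongation factor for selenocysteine, was listed in replicate 2 alone, at 89.7%.

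The eIF3 complex, the scaffold of the scanning ribosome, had 3 of 16 genes bound, against 10.5% of all protein-coding genes, in a group too small for the difference to be read. eIF3c, a core subunit, had a signal of 187 in the conservative list (2R 17665521 to 17665844), 123 in replicate 1 and 61.6 in replicate 2, and was in all 4 thresholded lists. Its summit lay in an exon, 5 bp past the nearest of its 2 TSSs. eIF3h had a signal of 89.3 (2L 5052304 to 5052627), 43.0 in replicate 1 and 54.6 in replicate 2, and was also in all 4. Its summit lay 314 bp downstream of the nearest eIF3h TSS, the most distant downstream position of any bound member, and 377 bp upstream of the TSS of senju on the other strand. eIF3d1, whose human counterpart can bind the cap, had a signal of 70.4 (3R 23679846 to 23680169) with the summit 31 bp upstream. It was in neither replicate's own thresholded list, with ranked signals of 30.3 and 41.6 and scores of 533 and 662 in replicates 1 and 2. Of the 13 unbound eIF3 genes, eIF3e stood at 6.76% and 5.40% in replicates 1 and 2, and eIF3b at 12.3% and 5.50%. The replicates parted at eIF3a, at 2.97% in replicate 1 and 51.1% in replicate 2. eIF3j was listed in replicate 1 alone (9.58%) and eIF3i in replicate 2 alone (23.1%). eIF3k, eIF3l and eIF3m lay between 13.8 and 72.2% in replicate 1 and between 28.6 and 53.0% in replicate 2.

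Among the factors named eIF2, 1 of 5 was bound, eIF2A (all protein-coding genes 10.5%). eIF2 has the regulatory subunit eIF2alpha, eIF2beta and the GTP-binding subunit eIF2gamma, and none of the 3 was in the conservative list. eIF2gamma was in the less strict list (signal 78.6, score 940, 3R 15263294 to 15263617) and in that of replicate 1 (signal 43.0, score 949). In the ranked list behind the conservative one its score was 739, below the lowest score kept. It shares its TSS with Su(var)3-9, which encodes a histone H3K9 methyltransferase, and the summit also lay 96 bp upstream of the TSS of Set, so the peak cannot be assigned to 1 of the 3 genes. eIF2alpha stood at 21.0% in replicate 1 with no ranked peak in replicate 2, and eIF2beta at 45.6% and 66.5%. eIF2D, another factor that can deliver tRNA in mammals, stood at 50.3% and 22.9%. eIF2A, a factor that can deliver initiator tRNA in mammals, was in the conservative list (signal 68.3, score 876, 3L 21824735 to 21825058) and in no other thresholded list. Its ranked signals were 30.6 in replicate 1 and 35.7 in replicate 2, at 2.91% and 2.44%. The summit lay in an exon 68 bp upstream of the inner of its 2 TSSs and 157 bp downstream of the outer one.

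The guanine nucleotide exchange factor eIF2B, which reactivates eIF2 and is a target of the stress response, had 0 of 5 genes bound. A group of 5 is too small to be read against the 10.5% of all protein-coding genes, so the count says nothing particular to eIF2B. Their ranks lay between 14.7 and 81.9% in replicate 1 and between 22.5 and 55.9% in replicate 2, and eIF2Balpha had no ranked peak in replicate 2. At eIF2Bbeta (X 2704571 to 2706217) the fourth strongest peak of the conservative list, with a signal of 1318, lay 680 bp upstream of the TSS. The neighbour on the other strand, Ugalt, named here after its values were seen, has its TSS 39 bp from that summit, and a window of 1000 bp counts the peak for eIF2Bbeta as well.

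eIF1, which guards start codon choice, was bound through a peak between eIF1 and RpL28. The summit lay 348 bp upstream of the eIF1 TSS and 33 bp upstream of that of RpL28, which encodes a protein of the large ribosomal subunit. Its signal was 94.4 in the conservative list (3L 3222831 to 3223154), 61.1 in replicate 1 and 38.5 in replicate 2, and it was in all 4 thresholded lists. In the ranked list of replicate 2 a peak at -87 bp from eIF1 was as strong (signal 38.6, score 88). The less strict list held a second, weaker peak between the genes, 126 bp upstream of eIF1, with a signal of 36.1. eIF1A, which works with eIF1 in scanning, stood at 36.6% and 56.2% in replicates 1 and 2.

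Of the late initiation factors, eIF5B was bound as well as eIF6. eIF5B encodes the GTPase that joins the subunits. Its peak (3L 3460565 to 3460888) had a signal of 125, with the summit in an exon 124 bp upstream of the inner TSS and 250 bp downstream of the outer one. It was in the thresholded list of replicate 2 (signal 75.8) and not in that of replicate 1, where its ranked peak had a signal of 49.7 and a score of 161. A second conservative peak (signal 74.7, 3L 3435009 to 3435332) lay in an intron of this long gene, 25432 bp downstream of the nearest of its TSSs, with no other TSS within 500 bp. eIF5, the GTPase activator of eIF2, had ranks of 86.3% and 16.6% in replicates 1 and 2.

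In the ranked lists, which hold peaks down to a signal of about 2, 40 of 52 members had a peak in replicate 1 (76.9%, all protein-coding genes 71.8%) and 39 in replicate 2 (75.0%, all protein-coding genes 79.2%). The median rank of members with a ranked peak was 10.4% in replicate 1 (n = 40), against 23.2% for all protein-coding genes with one. In replicate 2 it was 21.1% (n = 39), against 21.4%. With peaks ranked by score instead of signal, the medians were 17.3% for members and 27.2% for all protein-coding genes in replicate 1, and 24.1% and 25.3% in replicate 2. The members' median thus stood nearer the top of the list than that of all genes in replicate 1, by a smaller margin under scores, and close to it in replicate 2. In the top 5% of the list there were 15 members in replicate 1 (28.8%, all protein-coding genes 16.5%) and 13 in replicate 2 (25.0%, all protein-coding genes 19.5%). The 12 members in the top 5% of both (23.1%, all protein-coding genes 11.8%) were the 11 bound members and eIF4A. The conservative list derives from the same replicates, so this share largely repeats that of bound genes and is no separate observation. The ranks of the 34 members listed in both replicates had a Spearman's rho of 0.762, against 0.599 for all 8948 such protein-coding genes. This is a description across genes that share the libraries, and genes are not independent replicates. The 7 members without a ranked peak in either replicate were eEF1delta, eIF3f2, eIF4B, eIF4E4, eIF4E6, eIF4E7 and eIF4G1.

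**Figure D2:**
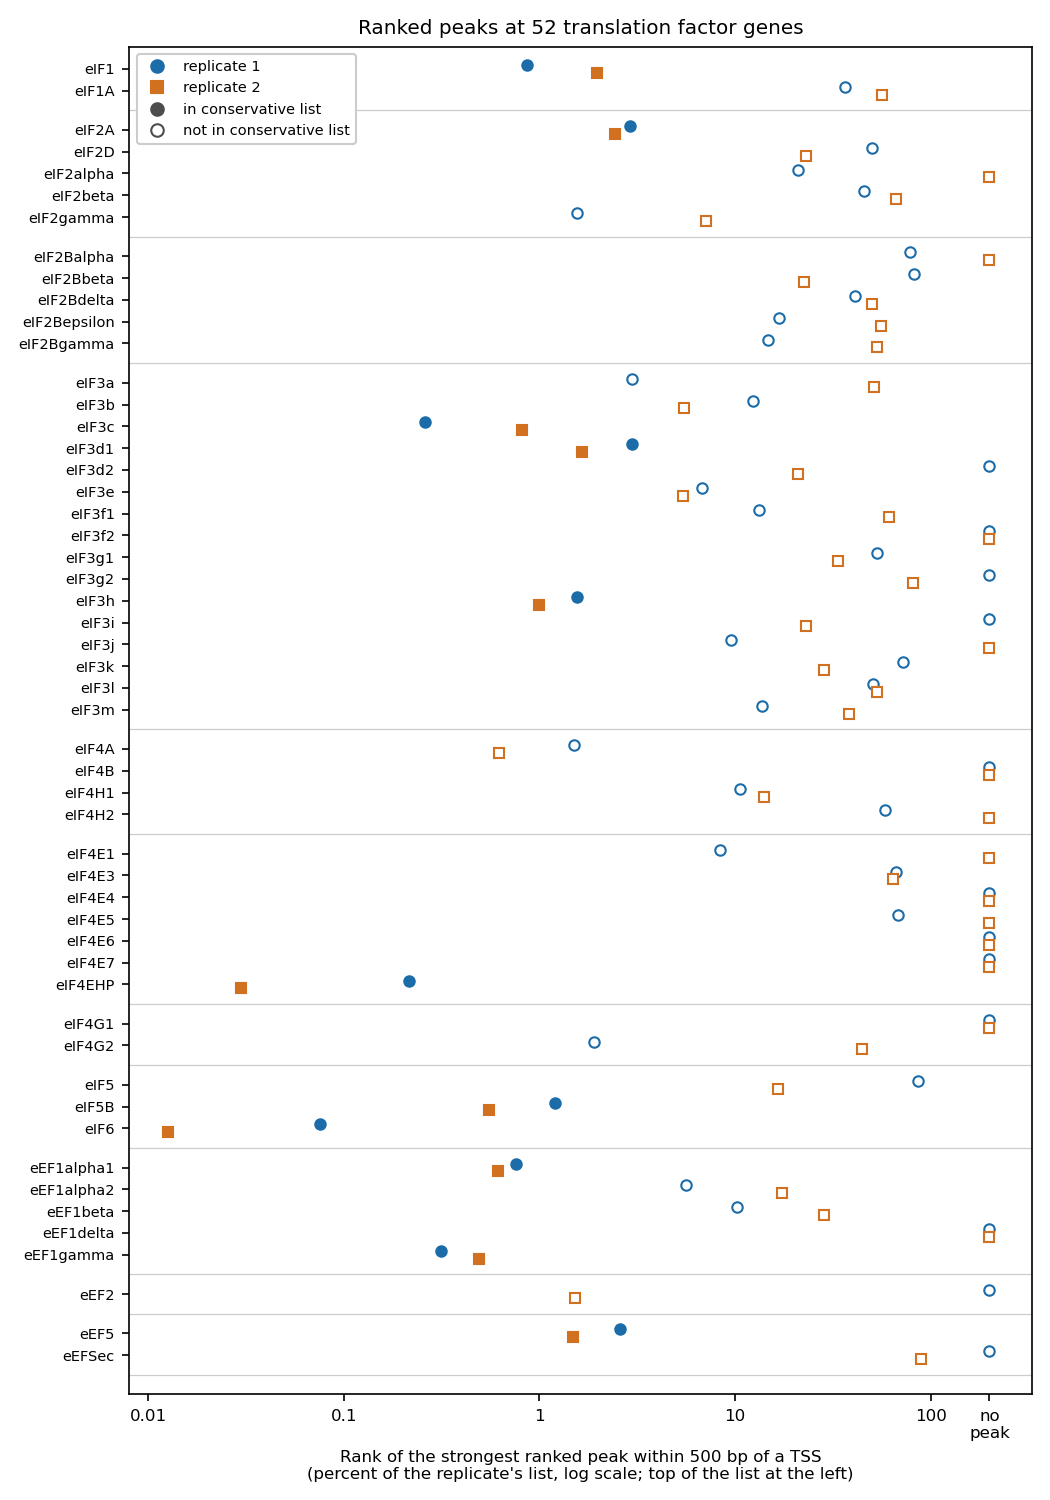
Rank of the strongest ranked peak within 500 bp of a TSS (horizontal axis, percent of the replicate's ranked list, log scale) for each of the 52 translation factor genes, in the order of the factor groups, with replicate 1 as blue circles and replicate 2 as orange squares. Filled symbols mark the 11 members of the conservative list, all of them within the top 5% of both lists together with eIF4A. eIF2gamma, eIF3a and eIF4G2 reach it in replicate 1 alone and eEF2 in replicate 2 alone. Genes with no ranked peak are drawn at the right edge.

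Of 6 numbered pairs of paralogues, the first gene ranked higher in both replicates in 5, a gene without a ranked peak counting as lower. The larger eIF4E family held no such order, since eIF4E1 had no ranked peak in replicate 2 and eIF4E3 had one. eEF1alpha1 stood at 0.756% and 0.617% in replicates 1 and 2, and eEF1alpha2 at 5.62% and 17.3% (signals 24.6 and 21.2). The summit at eEF1alpha1 lay 13 bp from a TSS, while the strongest ranked peak of the series at eEF1alpha2 lay 448 bp downstream (signal 48.7). eIF3d1 stood at 2.98% and 1.64%, whereas eIF3d2 had no ranked peak in replicate 1 and one at 21.1% in replicate 2 (signal 19.9). eIF3f1 stood at 13.3% and 61.3% (signals 19.3 and 11.1), and eIF3f2 had no ranked peak in either. eIF3g1 stood at 53.1% and 33.8% (signals 10.9 and 16.5), and eIF3g2 was listed in replicate 2 alone at 81.2% (signal 7.24). eIF4H1, at the ranks given above, had signals of 20.6 and 22.5, and eIF4H2 had a signal of 10.2 in replicate 1 alone. The exception was eIF4G, the scaffold that joins the cap complex to eIF3. eIF4G2, which is needed for male meiosis, stood at 1.91% in replicate 1 (signal 37.9) and 44.7% in replicate 2 (signal 14.2), and eIF4G1 had no ranked peak. eIF4G1 lies on chromosome 4, where 1 of 80 protein-coding genes had a ranked peak near a TSS in replicate 1 and 8 in replicate 2. Of these 12 genes eEF1alpha1 and eIF3d1 were bound, in a set too small to be read against the 10.5% of all protein-coding genes. The pairs rest on 1 value per gene and replicate.

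**Figure D3:**
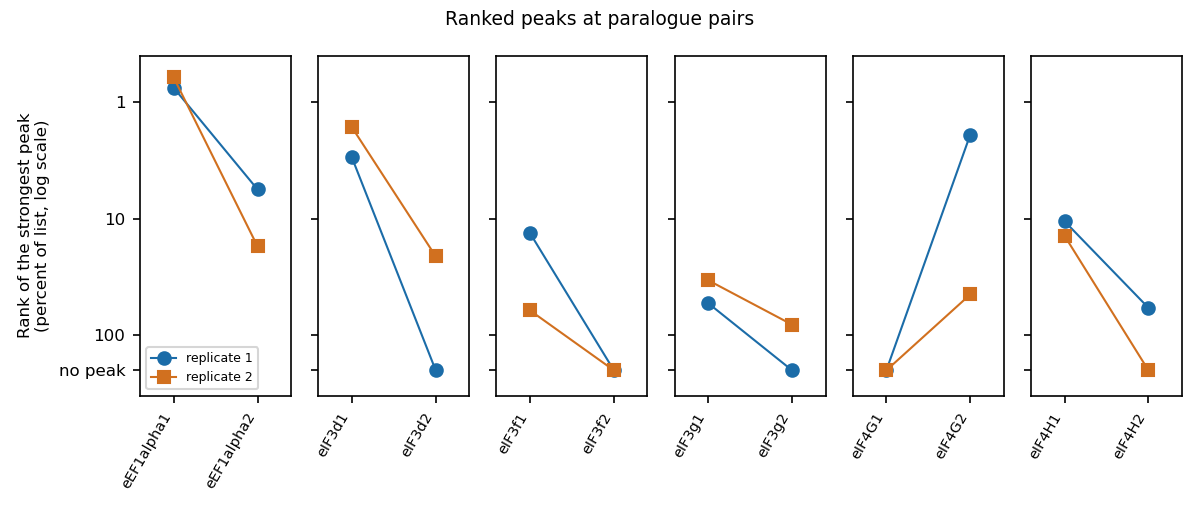
Rank of the strongest ranked peak within 500 bp of a TSS (vertical axis, percent of the replicate's ranked list, log scale, top of the list upward) for the 6 numbered paralogue pairs, each joined by a line per replicate (blue circles for replicate 1, orange squares for replicate 2). The lines run downward from the first gene to the second in 5 pairs and upward from eIF4G1 to eIF4G2, and genes with no ranked peak are drawn at the bottom.

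Member summits tended to lie close to an annotated TSS. Positions are from the nearest TSS of the gene, so a gene with more TSSs can have a shorter distance. Of the bound genes, 7 of 11 members and 622 of all 1468 had 2 or more TSSs. How far this bears on the difference below was not tested. The median summit stood at -39 bp (n = 11, quartiles -110.5 and -18 bp), with 9 of 11 upstream, against a median of -124 bp for all 1468 bound protein-coding genes (quartiles -204 and -64 bp), with 88.4% upstream. Within 50 bp of the TSS lay 5 of 11 member summits, those of eEF1alpha1, eEF1gamma, eEF5, eIF3c and eIF3d1, against 12.8% of the summits of all bound genes. Median signals were 125 at bound members (range 68.3 to 698) and 113 at all bound genes.

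**Figure D4:**
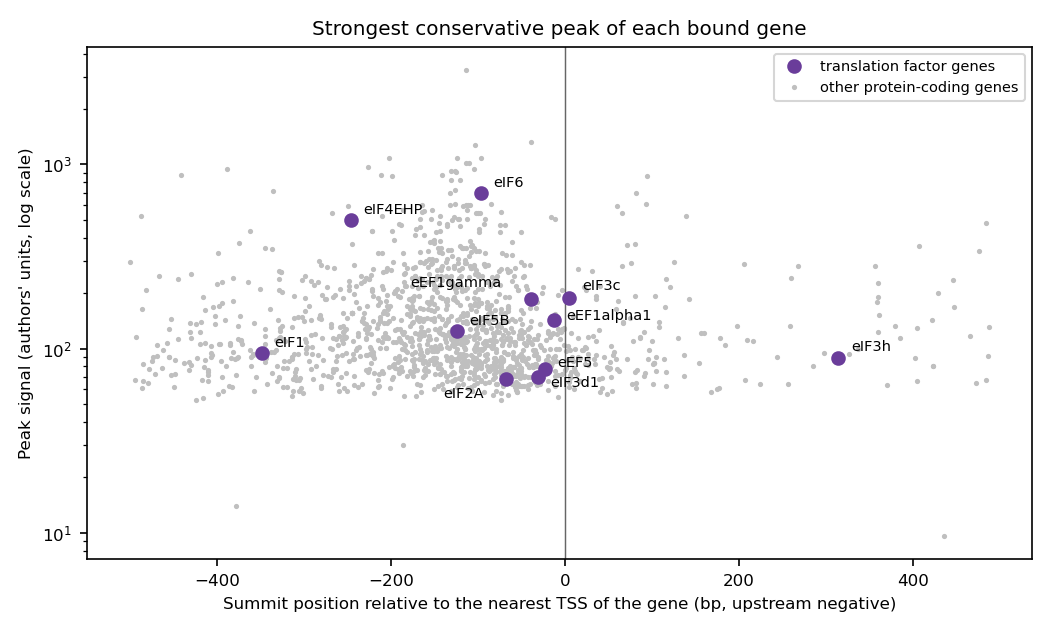
Signal of the strongest conservative peak of each bound gene (vertical axis, authors' units, log scale) against the position of its summit relative to the nearest TSS of that gene (horizontal axis, bp, upstream negative). The 11 translation factor genes are purple and named, and the other bound protein-coding genes are grey. A cluster of 5 members lies within 50 bp of the TSS, while eIF1 and eIF3h lie over 300 bp away on either side.

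Few member peaks were shared with a neighbouring protein-coding promoter, in a set of only 11 bound members. Noncoding neighbours, such as asRNA:CR45928 at eIF6, are not counted in this. The strongest summit of 3 of the 11 bound members, eIF1, eIF3h and eIF4EHP, served the window of a further protein-coding gene too, against 62.4% over all bound genes. Among bound genes without such sharing, the summit lay within 50 bp of the TSS at 5 of 8 members and at 14.7% of all 552. Of the members with an opposite-strand coding neighbour whose TSS lies within 500 bp upstream, 5 of 20 were bound (25.0%, all such genes 23.0%). Of the members with none, 6 of 32 were bound (18.8%, all such genes 5.80%). Of members with 2 or more TSSs, 7 of 20 were bound (35.0%, all such genes 16.8%), against 4 of 32 members with 1 TSS (12.5%, all such genes 8.24%). By arm, 4 of 13 members on 2R were bound (all protein-coding genes there 10.1%), 3 of 11 on 3L (11.4%), 3 of 15 on 3R (11.8%) and 1 of 5 on 2L (9.75%). On X it was 0 of 7 (9.24%) and on chromosome 4 it was 0 of 1 (1.25%). With so few members on an arm, these counts say nothing about differences between arms.

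Many mRNAs of the translation machinery in flies begin at a pyrimidine-rich start, known as the TCT initiator. The letters TCTTT lay within 10 bp of an annotated TSS, on the strand of the gene, at 2 of the 11 bound members (eEF5 and eIF3d1) and at 6 of the 41 others (eEF1alpha2, eEF2, eIF3g1, eIF3i, eIF3m and eIF4A). Over all protein-coding genes they occurred at 4.90% of bound genes and 3.21% of the others. This string was chosen after the peaks at members had been seen.

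The count of bound members moved with the definition of a bound gene. With a window of 200 bp it was 8 of 52, without eIF1, eIF3h and eIF4EHP (15.4%, all protein-coding genes 7.69%), and with 1000 bp it was 12 (23.1%, all protein-coding genes 12.1%). Above the median signal of the conservative list it was 6 (11.5%, all protein-coding genes 5.93%). When a summit went only to whichever TSS was closest, noncoding genes included, it was 8 (15.4%, all protein-coding genes 7.45%), since eIF1, eIF4EHP and eIF6 went to RpL28, CG18428 and asRNA:CR45928. With any overlap of the peak interval and the window it was 11 (21.2%, all protein-coding genes 11.1%). Sequencing depth is unknown here, so no interval on a signal can be given, and the absence of a peak means only that none was listed.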

How the data were processed

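The deposited peak lists are intervals on dm6, thresholded or ranked by the irreproducible discovery rate (IDR), from alignments of each replicate or of both and a control, per the text deposited with the samples. No source used here names the aligner or peak caller. Signal is the authors' deposited value per peak and has its own scale in every list. The deposited score, at most 1000, follows the IDR. In the ranked lists of the series 20 further columns, which no label maps to a sample, were not used. No read counts are given, so depth is unknown.

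Peaks on the arms were joined to TSSs of Ensembl release 115 (BDGP6.54, the build of the lists), without transposable elements, where a summit lay within 500 bp, and the join was tested on simulated peaks. No interval ran past the end of its arm in the RefSeq sequence of the same build, from which sequences were read. Members are described beside all protein-coding genes and no test was run. Members, factor groups, motifs and alternatives were chosen with earlier results of these data known. By the rule for named genes, values are given for members in any thresholded list and for numbered paralogues, and other members are given by rank. Signals and positions of eIF4A and eEF2 were added after their values were seen. Genes that are not members are named where they share a summit. Exceptions are Ugalt, genes mentioned as background, and the other genes of translation, chosen by symbol and described last. Alternatives were other lists, windows, signals and ways of assigning summits. The requirement of both replicates' own lists was added after the data were seen. Python 3.11.15, NumPy 2.4.6, pandas 2.3.3, SciPy 1.17.1 and matplotlib 3.10.9 were used.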

Additional observations from a re-analysis of the deposited data

How the results depend on the processing

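The count of 11 bound translation factor genes was 7 to 8 in the lists of single replicates, 6 above the median signal and 6 where both replicates' own lists were also required, and within 1.5 times the main count under the other alternatives. The 7 factor groups with a bound member became 4 above the median signal and 4 to 6 in the lists of single replicates. There were 5 groups with a window of 200 bp, 5 by the nearest TSS alone and 8 with 1000 bp. The less strict list and interval overlap each gave 7. The median summit position of -39 bp was -31 bp in the less strict list, -35 bp with a window of 200 bp, -53.5 bp with 1000 bp, and -27.5 to -22 bp in the lists of single replicates. Members' median rank in replicate 1 was 10.4% by signal, 9.58 to 11.9% under other windows and 17.3% by score. In replicate 2 it was 21.1% by signal and 20.8 to 24.1% under these alternatives. The cause of these shifts was not tested. No paired analysis was possible because the series holds 1 group. With 2 replicates and unknown depth, a site in 1 list only cannot be told from one missed in the other.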

Other observations

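Other genes of translation, chosen by symbol after the values of the initiation and elongation factors had been seen, also held conservative peaks. Of 11 genes for termination, mRNA tail binding and translational control, 3 were bound, against 10.5% of all protein-coding genes, and for a list chosen in this way the count supports nothing. These were eRF1 (signal 110, summit 91 bp upstream of the TSS), which recognises stop codons, its partner GTPase eRF3 (signal 90.3, 31 bp upstream), and pAbp (signal 65.1, 472 bp downstream), which encodes the poly(A)-binding protein. Rbbp5 shares the summit at eRF1, and SC35 that at eRF3. Thor, which encodes the eIF4E-binding protein, and cup, which encodes an eIF4E-binding repressor of maternal mRNAs, were not bound, nor were the eIF2alpha kinase genes PEK and Gcn2.

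Of 18 cytoplasmic aminoacyl-tRNA synthetase genes with symbols of that form, 4 were bound, against 10.5% of all protein-coding genes. This list was chosen in the same way, so its count supports nothing either. The 4 were GluProRS (signal 353), SerRS (185), IleRS (169) and ArgRS (96.1). All 4 shared their summit with a neighbouring protein-coding gene, as did 62.4% of all bound protein-coding genes. Of 15 mitochondrial synthetase genes 0 were bound, and of 8 genes for mitochondrial translation factors 0, in counts too small to be read against the 10.5% of all protein-coding genes.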
